A study of Mus musculus with 12 samples.

Results

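The data described here are the resting transcriptome of MIN6 cells, a mouse insulinoma line that makes, stores and secretes insulin. The condition was chosen by label and column name alone. It holds 3 of the 12 samples of the series, each a separate culture according to the series design. These cells had vehicle for 18 h and a low glucose step (2.8 mM). The paper maintains MIN6 cells in a medium with more glucose than this. The other 9 samples hold 3 cultures each of low glucose with TMAO (trimethylamine N-oxide, 100 nM for 18 h), high glucose with vehicle and high glucose with TMAO. All 12 carry the genotype label WT, and the study's scheme places a fast of 1 h before the glucose step. MIN6 is 1 tumour-derived, dividing line grown without the other cell types of an islet, which limits it as a model of a beta cell in tissue. No contrast was tested. Levels are given as FPKM, the number of sequenced fragments per kilobase of gene length, scaled to library size, with the SD over the 3 cultures. Genes are compared with each other only on that per-length scale, and neighbours in an order are set apart only where the ranges of their 3 values do not overlap.

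Beta cells devote their secretory pathway to insulin. Preproinsulin enters the endoplasmic reticulum (ER), is folded there, and is packed with granin proteins and cleaved by prohormone convertases in granules that fuse with the membrane when glucose metabolism closes ATP-sensitive potassium (KATP) channels and opens calcium channels. Mice carry a pair of insulin genes: Ins2, the ancestral gene, and Ins1, a retroposed copy. Amylin, the product of Iapp, is stored and released with insulin.

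Between 18408414 and 19047802 fragments were counted on genes in the 3 samples, within the range of 16793162 to 22340542 over the series. A count of 3 fragments equals at most 1.63e-05% of a sample, and this limit covers counting error only. Of 54022 genes in the table, 26393 had at least 1 fragment in at least 1 sample and 12967 had a mean of at least 1 FPKM, the level used here for listing a gene as expressed. Among protein-coding genes 49.3% reached that level (10859 of 22040), which is the background for the list counts below.

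The cells carried the label's markers at high levels. Ins2 was listed at 26034, 24526 and 23580 FPKM in the 3 cultures, 24713 ± 1238 (SD, n = 3), the highest gene of the transcriptome. Iapp followed at 11948, 11987 and 11212 FPKM, and Ins1 came next at 4690, 4567 and 4439 FPKM. The ranges of these 3 genes lay far apart, so their order was the same in each culture. Chga, which encodes the granule protein chromogranin A, stood at 1767 ± 33.2 FPKM and ranked seventh. Slc2a2, the glucose transporter GLUT2, was much lower at 65.6, 64.3 and 65.9 FPKM, rank 752. Ins2 lies on the minus strand of chromosome 7 (142678656 to 142743381, mm10), Ins1 on chromosome 19 (52264323 to 52265456), Iapp on chromosome 6 (142298423 to 142303961), Chga on chromosome 12 (102554969 to 102565028) and Slc2a2 on chromosome 3 (28697903 to 28731359), these last 4 on the plus strand.

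The Ins2 and Ins1 levels are only as separate as their sequences allow. The first 90 coding bases, which encode the signal peptide and the start of the B chain, are shown from the GENCODE M21 transcripts (GRCm38), 5′ to 3′, with capitals where the genes differ:
Ins1: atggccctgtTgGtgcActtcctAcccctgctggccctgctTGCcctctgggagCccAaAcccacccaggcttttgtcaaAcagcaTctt
Ins2: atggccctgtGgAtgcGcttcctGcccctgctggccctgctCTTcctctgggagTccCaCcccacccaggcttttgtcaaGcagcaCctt
These stretches differ at 12 of 90 bases. Over the whole aligned coding sequence (327 bases in Ins1 and 333 in Ins2) 90.7% of positions were identical, and the longest identical run was 56 bases. No window of 100 bases in either gene's annotated transcripts occurred in a transcript of another gene. The FPKM of Ins2 was 5.55, 5.37 and 5.31 times that of Ins1 in the 3 cultures, a ratio of 5.41 ± 0.12 (SD, n = 3), and 2.11 ± 0.067 times that of Iapp.

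A few genes took a large part of the pool. As a share of the summed FPKM, Ins2 alone held 7.76% ± 0.25 (SD, n = 3), the leading 3 genes 12.9% ± 0.31, the leading 20 genes 20.5% ± 0.31 and the leading 100 genes 30.3% ± 0.40. It took 616 genes to reach 50% of the total and 5832 to reach 90%. Only 2 genes, Ins2 and Iapp, exceeded 10000 FPKM, 14 exceeded 1000 and 413 exceeded 100, while 5586 reached 10. Both insulin genes together held 9.19% of the FPKM total. FPKM divides by gene length. Without that division, both insulin genes held 3.73% of the fragments, and the 20 leading genes by FPKM held 9.14% of the fragments.

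Hormones, granule cargo, mitochondrially encoded subunits and the translation machinery made up most of the top of the order. After Ins2, Iapp and Ins1 came mt-Co1 (3425 ± 46.1 FPKM), a subunit of cytochrome oxidase, then mt-Nd1 (2563 ± 73.1) of complex I and mt-Cytb (2459 ± 69.5) of complex III. Chga was followed by Eef1a1 (1451 ± 54.6), the elongation factor that delivers aminoacyl-tRNA, and Scg2 (1447 ± 33.1), another granin. Next were mt-Nd2 (1373 ± 48.5), Cpe (1331 ± 51.0), the carboxypeptidase that trims prohormones, and the neuropeptide genes Cck (1326 ± 40.3) and Npy (1179 ± 51.2). Eef1a1 and Scg2 overlapped each other and lay above Cpe and Cck, which also overlapped each other, and the range of mt-Nd2 overlapped all 4. Cck lay above Npy. Lower in the first 30 stood, beside more mitochondrial and peptide genes, Eef2, Ubb (polyubiquitin), Acly (ATP citrate lyase, 824 ± 18.7 FPKM), Rplp1, Ptma, Cox6a1, Ptms, Rpl41, Tceal9, Hsp90ab1 (the cytosolic chaperone HSP90) and Rpl8. Among the 30 neighbouring pairs of the order, the last being Rpl8 with Rps15 below it, 12 had ranges that did not overlap.

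**Figure D1:**
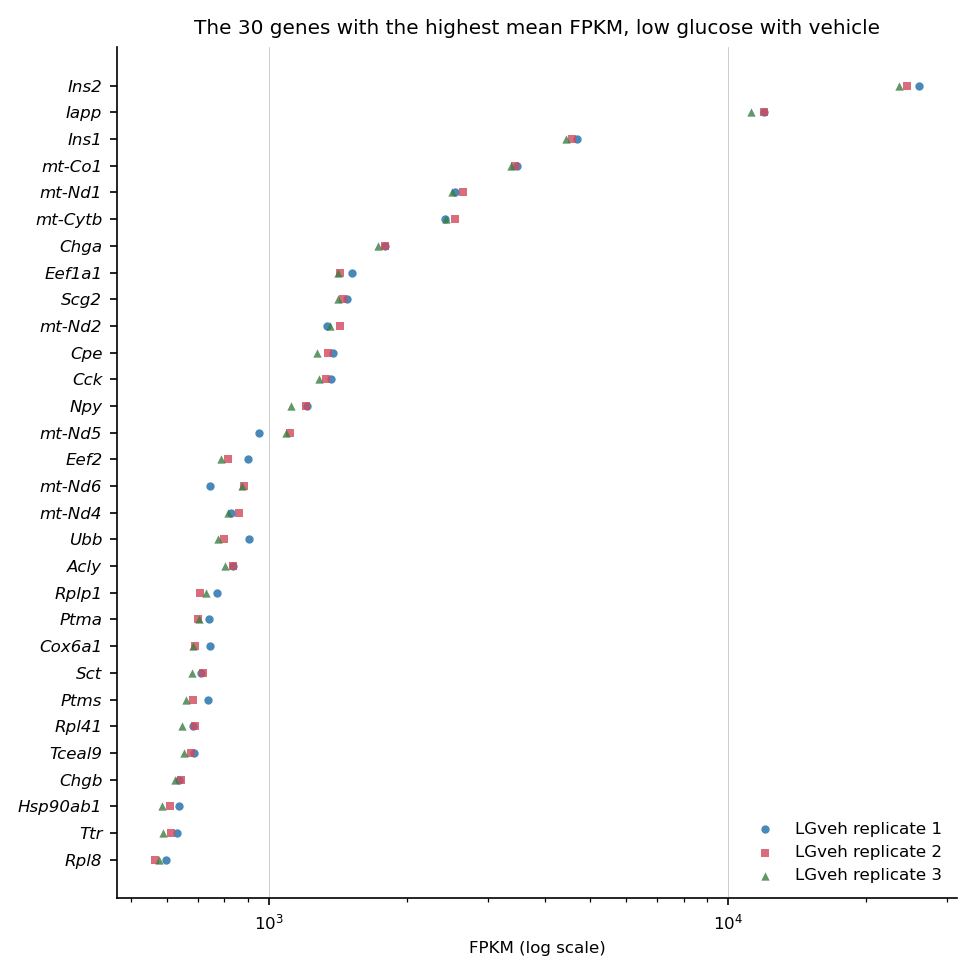
FPKM of the 30 genes with the highest mean level in the 3 low glucose and vehicle cultures, on a log axis with 1 symbol per culture. Ins2, Iapp and Ins1 stand apart from each other and from the rest, and further down most neighbours overlap.

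By function, cytosolic ribosomal protein genes held 4.76% ± 0.056 of the FPKM total (84 of 87 at or above 1 FPKM), mitochondrially encoded genes 4.41% ± 0.16, nuclear genes for oxidative phosphorylation subunits 2.37% ± 0.042 (89 of 94) and translation initiation and elongation factors 1.57% ± 0.031 (52 of 54), led by Eef1a1 and Eef2. The insulin genes were listed with a larger share than the ribosomal protein genes. The mitochondrial share includes 5 genes whose listed values are uncertain, as described next, so it is not ranked against insulin. Glycolysis genes held 0.349% ± 0.0045, led by Pkm (328 ± 8.2 FPKM), pyruvate kinase, and Tpi1 (178 ± 11). Genes of the vacuolar ATPase, the proton pump that acidifies granules and lysosomes, held 0.351% ± 0.0041, and 18 of 24 reached 1 FPKM.

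The mitochondrial genes were far from even. The 13 protein genes of the mitochondrial genome are cut from common precursor transcripts, yet mt-Co1 stood at 3466, 3434 and 3375 FPKM while mt-Co2, its neighbour on the same strand, was listed at 60.5, 76.4 and 62.9 FPKM, a ratio of 51.9 ± 6.3 (SD, n = 3). mt-Nd3 (52.5 ± 4.0 FPKM), mt-Co3 (35.4 ± 3.5), mt-Atp6 (33.0 ± 3.6) and mt-Nd4l (28.9 ± 3.6) were low too. All 5 share nearly their whole sequence with annotated pseudogenes on chromosome 1: between 97.6% and 99.9% of their 100-base windows also occur there. The other mitochondrial protein genes shared at most 60.8% (mt-Nd4, listed at 833 FPKM), and apart from mt-Atp8 they stood between 833 and 3425 FPKM. The pseudogenes sit side by side between 24611535 and 24616197 and include Gm28661 (28.2 ± 2.4 FPKM), Gm10925 (29.96 ± 2.0), Gm28437 (21.2 ± 1.6) and Gm29216 (24.7 ± 11.3), which are 4 of the 5 highest unprocessed pseudogenes of the table. The first 80 bases of mt-Co2 and Gm28661 show the identity (GENCODE M21, 5′ to 3′, with no base in capitals because none differs):
mt-Co2: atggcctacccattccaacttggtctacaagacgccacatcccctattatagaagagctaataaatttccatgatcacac
Gm28661: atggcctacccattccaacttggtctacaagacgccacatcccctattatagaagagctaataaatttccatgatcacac
The match ran over all 681 aligned bases with 0 differences. The listed values of these 5 genes and of the pseudogenes are therefore uncertain. How fragments that match both places were counted was not tested. The gene mt-Atp8, at 5.52 ± 0.79 FPKM and with 0% of windows shared, is a short gene that overlaps mt-Atp6. Copies outside annotated transcripts were not searched, so its listed value may be uncertain too. The mitochondrial ribosomal RNAs, in libraries made by poly-T selection, stood at 108.4 FPKM for mt-Rnr1 and 89.3 FPKM for mt-Rnr2.

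**Figure D2:**
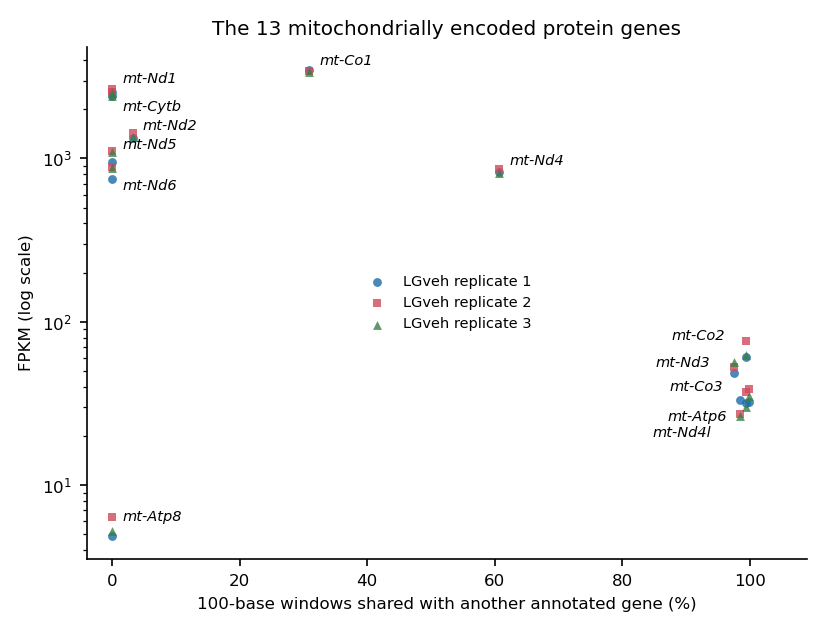
FPKM (log axis) of the 13 mitochondrially encoded protein genes against the percentage of their 100-base windows that also occur in another annotated gene, with 1 symbol per culture. The 5 genes at 97.6% or more lie between 28.9 and 66.6 FPKM on average, and mt-Co1, with 30.8% shared, at 3425 FPKM.

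Some nuclear genes share sequence with copies too. Processed pseudogenes, reverse-transcribed copies of mRNAs, held 3.70% ± 0.039 of the FPKM total with 0.679% of the fragments. The highest was Gm10123 at 464, 499 and 386 FPKM, and 100% of its windows occur in another gene, most of all in Ppia (cyclophilin A), itself listed at 175 ± 14.6 FPKM. Dynlt1-ps1 (374 ± 28.4 FPKM) and Gm14303 (258 ± 15.4) shared 100% of their windows as well. Gapdh, a glycolytic gene often used as a reference, was listed at only 24.7, 27.1 and 16.5 FPKM, and 20.9% of its windows occur in other genes, 82 of them pseudogenes. The level of Gapdh and of these pseudogenes is uncertain for that reason. Of the 30 leading genes, 19 shared no window with another gene and 6 shared over 10%: mt-Co1, mt-Nd4, Eef1a1, Ubb (43.6%), Rplp1 and Ptma.

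The secretory list, 128 genes from hormones to ER folding factors, held 17.6% ± 0.36 of the FPKM total, and 88 of the 128 reached 1 FPKM. Hormones came first. Besides Ins2, Iapp and Ins1, glucagon mRNA was present: Gcg, the hormone of alpha cells, was listed at 216, 207 and 202 FPKM, rank 124. Ins2 stood 119 ± 1.9 (SD, n = 3) times higher. Sst (somatostatin) was near the floor of the expressed range at 2.11, 1.66 and 1.25 FPKM, from 24, 19 and 14 fragments, and Ghrl (ghrelin) was at 0.474 ± 0.15 FPKM. Ppy and Pyy, the pancreatic polypeptide and peptide YY genes, had no fragment in any of the 3 cultures.

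4 peptide genes outside the classical islet hormones were among the most abundant transcripts. Cck (cholecystokinin) was listed at 1362, 1332 and 1282 FPKM, Npy (neuropeptide Y) at 1212, 1203 and 1120, Sct (secretin) at 713, 717 and 680, and Pdyn (prodynorphin) at 452, 443 and 411. The ranges of Sct and Pdyn did not overlap, and neither overlapped Npy. Nucb2 (34.0 ± 1.9 FPKM) and Cartpt (16.3 ± 1.6) were an order lower. Of the 38 genes in this group 10 reached 1 FPKM and 14 had no fragment, and the 4 leading genes all stood above 100 FPKM.

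All 7 granins and granin-like genes exceeded 100 FPKM. In order of mean level they were Chga, Scg2, Chgb (635 ± 9.2), Scg3 (314 ± 6.3), Vgf (211 ± 8.5), Pcsk1n (206 ± 9.96), which encodes an inhibitor of prohormone convertase 1, and Scg5 (151 ± 3.5), whose product is a chaperone for convertase 2. The ranges of Vgf and Pcsk1n overlapped. Chga was 2.78 ± 0.023 times Chgb. The granins as a group held 1.49% ± 0.010 of the FPKM total.

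Cpe led the processing enzymes. Pcsk2 (prohormone convertase 2) was listed at 181, 172 and 173 FPKM and Pcsk1 (prohormone convertase 1) at 73.2, 68.8 and 66.1 FPKM, a ratio of 2.53 ± 0.076. The ranges of both convertases were apart. Cpd (40.5 ± 0.69 FPKM), a second carboxypeptidase, Pam (35.4 ± 0.40), which amidates peptides such as amylin and cholecystokinin, and Furin (19.3 ± 0.68) were lower. Pcsk5 and Qpct had no fragment.

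On the granule itself, Syt13 (a synaptotagmin, 368 ± 18.5 FPKM), Ptprn (the autoantigen IA-2, 270 ± 9.5) and Slc30a8 (the zinc transporter ZnT8, 257 ± 9.8) were highest, followed by Atp6ap2 (130 ± 3.8) and Tmem27 (94.6 ± 3.9). Of 37 genes in the group 31 reached 1 FPKM. ER translocation and folding was the only secretory group besides the granins in which every member was expressed: 27 of 27, led by P4hb (protein disulfide isomerase, 328 ± 11.5 FPKM), Calr (calreticulin, 315 ± 6.8), Hspa5 (the ER chaperone BiP, 275 ± 13.9), Pdia3 (203 ± 5.7), Ero1lb (202 ± 9.4), an oxidase that serves proinsulin folding, and Hsp90b1 (177 ± 2.0).

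The transcription factors listed for mature beta cells were all present, on a list chosen with earlier results of these data known. Each of the 10 reached 1 FPKM and 9 reached 10 FPKM. Mafa, an activator of the insulin genes, was listed at 556, 522 and 493 FPKM, rank 32 of all genes and the highest of the 1454 protein-coding genes that the table assigns to a transcription factor family. Pdx1 (181, 176 and 172 FPKM) and Nkx6-1 (185, 166 and 173) overlapped each other and lay below Mafa. Neurod1 (83.8 ± 1.8), Nkx2-2 (49.96 ± 1.0), Mlxipl (44.8 ± 7.1), the glucose-responsive factor ChREBP, Isl1 (37.6 ± 1.3), Pax6 (34.0 ± 0.43), Mnx1 (21.3 ± 0.67) and Glis3 (5.67 ± 0.071) completed the group. Mlxipl varied most among them, at 37.3 FPKM in culture 1 and 45.8 and 51.4 in the others.

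Of 14 factors shared by endocrine and foregut cells, 12 reached 1 FPKM, led by Insm1 (79.9 ± 3.2 FPKM), a factor of endocrine differentiation, Foxa2 (43.1 ± 2.2), Ldb1 (33.6 ± 1.2), a cofactor of Isl1, Myt1 (28.7 ± 0.99), Rfx6 (24.2 ± 3.4) and St18 (18.8 ± 0.96). Factors of progenitors, duct and exocrine cells were mostly silent. Pax4 (13.3 ± 0.97 FPKM), Hes1 (4.59 ± 0.37) and Gata4 (1.13 ± 0.28) were among those that reached the level, Nkx6-2 and Gata6 were below 0.02 FPKM, and Neurog3, Ptf1a, Sox9 and Onecut1 had no fragment. Among factors of other islet cell types, Etv1 (21.6 ± 0.76) and Fev (1.28 ± 0.086) were expressed. Hhex, which marks delta cells, had no fragment. A count of 0 over the 3 cultures allows at most 0.106 FPKM for any of the 81 list genes without a fragment, and 0.0266 FPKM for the median one. Altogether 28 of 42 identity factors reached 1 FPKM.

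All 25 genes listed for mature beta-cell function reached 1 FPKM and 23 reached 10. The members were chosen with earlier results of these data known, so this count is not a test of identity. G6pc2, the islet glucose-6-phosphatase subunit, was listed at 506, 496 and 485 FPKM. Of the glucose transporters, the high-capacity member was the higher one. Slc2a2 was 13.3 ± 0.88 times Slc2a1 (GLUT1, 4.92 ± 0.28 FPKM). Hk1, a low-Km hexokinase, was at 8.94 ± 0.40 FPKM, and Hk2 had no fragment. Ucn3 (urocortin 3), a marker of functional maturity in mouse islets, was at 14.7 ± 2.1 FPKM.

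Of 24 genes usually kept silent in beta cells, 10 reached 1 FPKM, 1 reached 10, and 5 had no fragment. The gene above 10 was Igfbp4 (20.8, 18.9 and 19.0 FPKM), an insulin-like growth factor binding protein. Hk1, Parp3 (6.74 ± 0.65), Maf (5.19 ± 0.12), Tst (4.77 ± 0.20) and Lmo4 (4.41 ± 0.35) followed. Slc16a1, the monocarboxylate transporter MCT1, was at 3.38 ± 0.31 FPKM and Ldha, lactate dehydrogenase A, at 3.35 ± 0.081. The share at 1 FPKM was 41.7%, beside 49.3% of protein-coding genes. The median over all 24 genes was 0.237 FPKM, beside 0.866 for all protein-coding genes, and over the 19 genes with a fragment it was 2.49 FPKM, beside 4.38 for protein-coding genes with a fragment.

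Markers of other cell types were checked as a list of 143 genes in 14 roles. 38 reached 1 FPKM and 56 had no fragment. The list overlaps the beta cell and secretory lists by 21 genes, 7 of the 38 among them. No fragment was counted for Prss2 and Pnlip (acinar enzymes), Krt19 and Sox9 (duct), Cdh5 (endothelium), Pdgfrb (pericytes) or Ptprc and Adgre1 (leukocytes), and the means of Cpa1, Ctrb1, Cftr and Pecam1 lay between 0.00224 and 0.1004 FPKM. The summed FPKM over the 20 acinar genes was between 5.09 and 7.19 in the 3 cultures, most of it Bhlha15 (4.36 ± 0.64), a factor of secretory cells. For the 10 fibroblast and pericyte genes it was between 0.404 and 0.522, with Col1a1 the highest at 0.448 ± 0.055 and 7 at 0, and for the 10 leukocyte genes between 2.92 and 3.66, nearly all Cd68 (3.36 ± 0.41). Endothelial genes summed to between 9.34 and 11.7 FPKM, carried by Esam (5.76 ± 0.71) and Plvap (3.83 ± 0.57). Erythroid, pluripotency, muscle and keratinocyte genes each summed to under 4 FPKM. In bulk RNA, few cells of a type and little RNA per cell cannot be told apart.

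5 roles stood above this floor. The 10 alpha cell genes summed to between 835 and 890.3 FPKM, and among them Ttr (transthyretin, 630, 611 and 589 FPKM), Gcg and Gc (42.4 ± 0.50, vitamin D binding protein) were high, Slc38a5 (1.72 ± 0.44) was just above 1, and Sstr2, Irx2, Pou3f4 and Irx1 lay between 0.0203 and 0.288 FPKM. Ttr was also the leading hepatocyte marker, and there it stood alone, since the next genes, Apoa2 (9.70 ± 0.66) and Serpina1a (3.41 ± 0.14), were far lower. The 17 neuronal genes summed to between 578 and 606 FPKM and 11 reached 1 FPKM, led by Stmn3 (a microtubule regulator, 174 ± 10.1), Tubb3 (neuronal tubulin, 103 ± 3.2) and Th (tyrosine hydroxylase of catecholamine synthesis, 64.1, 67.6 and 69.2 FPKM). The 9 gut endocrine genes summed to between 3698 and 3869 FPKM. Chga, Cck and Sct exceeded 100 FPKM and carried this sum. Chga is also a label marker of these cells, and Cck and Sct are on the secretory list as well. Tph2 (4.43 ± 0.36) and Tph1 (2.18 ± 0.22) of serotonin synthesis were low, and Gast, Gip, Pyy and Nts were below 1. The 9 duct genes summed to between 66.8 and 68.9 FPKM, and Spp1 (osteopontin, 36.7 ± 1.2) and Krt7 (20.2 ± 0.78) were expressed without Krt19 or Sox9. Whether these transcripts were spread over all cells or held by a few was not tested.

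**Figure D3:**
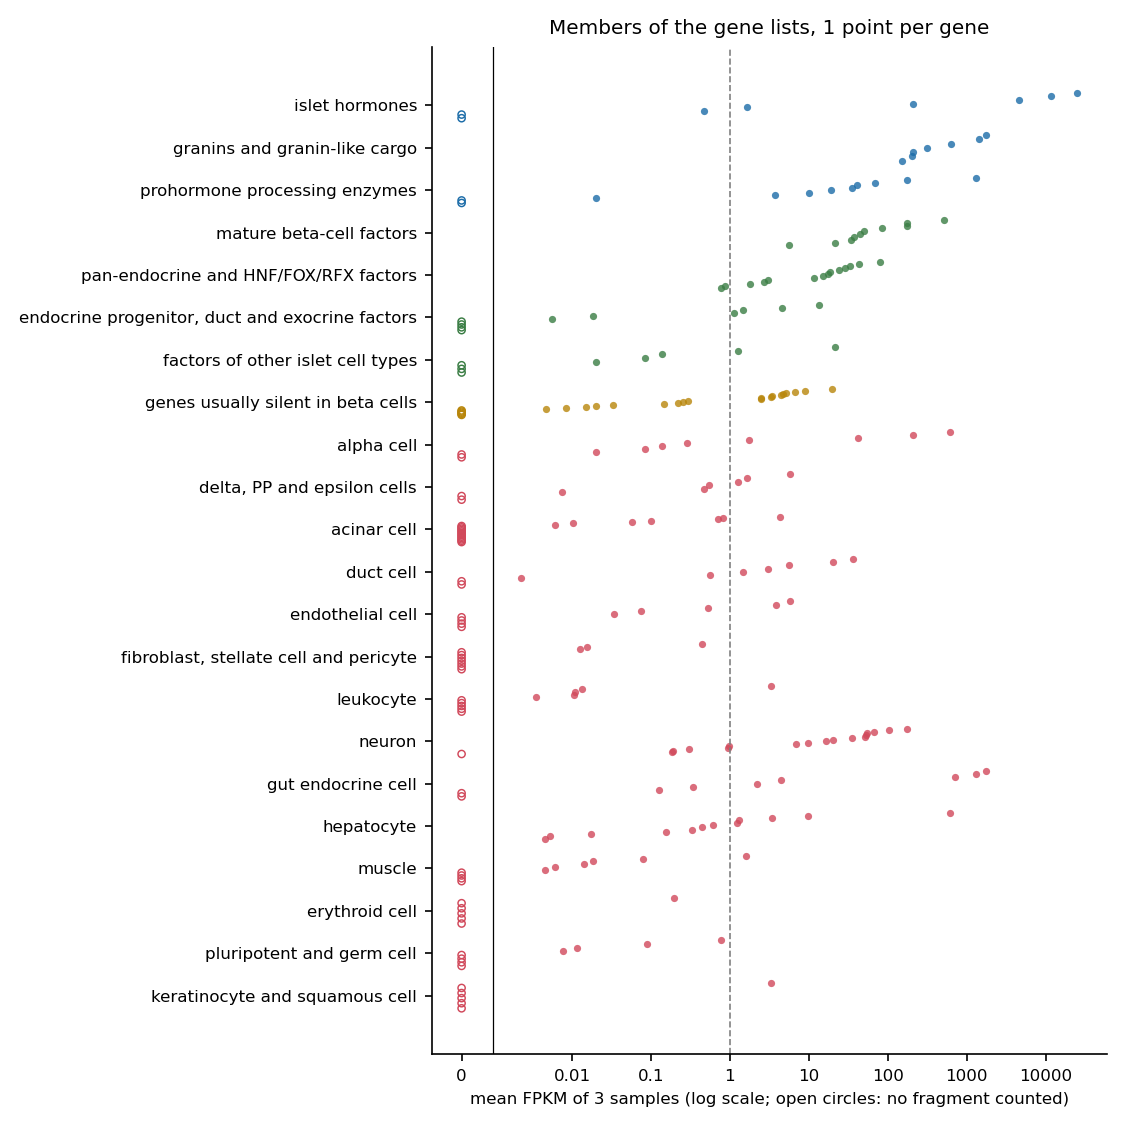
Mean FPKM (log axis) of each gene in the lists, grouped by role, with open circles at the left for genes without a fragment and a dashed line at 1 FPKM. Granins and mature beta-cell factors lie wholly to the right of the line, most acinar, fibroblast, erythroid and keratinocyte markers have no fragment, and a few genes lie above 100 FPKM in the alpha (2), neuronal (2), gut endocrine (3) and hepatocyte (1) roles.

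Receptors were expressed sparsely and at moderate levels. Of 684 receptor genes 188 reached 1 FPKM (27.5%), 72 reached 10 and 212 had no fragment. Among 414 G protein-coupled receptors 71 reached 1 FPKM and none 100. Glp1r, the receptor for the incretin GLP-1, led at 96.9, 98.95 and 99.3 FPKM. Ffar1, the long-chain fatty acid receptor, came next at 75.02, 74.4 and 74.6 FPKM. Adra2a, the inhibitory alpha-2A adrenergic receptor, was at 49.6 ± 1.5, Adgrg1 (an adhesion receptor) at 45.5 ± 1.2 and Galr3, a galanin receptor, at 32.0 ± 0.36. The ranges of these 5 did not overlap. Gipr, the receptor of the other incretin, was lower at 14.9, 18.5 and 22.0 FPKM and differed more between cultures. Olfactory and vomeronasal receptors served as a family that the cells should lack: 1 of 1419 reached 1 FPKM (Olfr1259 at 5.55 ± 0.46) and 1321 had no fragment.

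Among receptor tyrosine kinases (23 of 58 at 1 FPKM), Ddr1, a collagen receptor, led at 85.3 ± 4.5 FPKM, ahead of Ret (28.5 ± 0.87), the signalling receptor of the GDNF family, Lmtk3 (27.1 ± 5.2), Aatk (23.7 ± 0.063) and Ntrk2 (21.8 ± 0.90), the receptor of brain-derived neurotrophic factor. Of the cytokine and TNF receptor group 34 of 99 were expressed. Cntfr, the ligand-binding subunit for ciliary neurotrophic factor, was listed at 94.8, 90.04 and 88.8 FPKM and Il1r1, the interleukin-1 receptor, at 80.9, 82.3 and 78.5 FPKM. Tnfrsf12a (60.6 ± 2.2), Ngfr (33.1 ± 2.0) and Tnfrsf1a (32.5 ± 2.1) came next. Tgfbr1 (15.9 ± 0.61) and Bmpr1a (13.3 ± 0.22) led the TGF-beta family, of which 8 of 14 were expressed and Tgfbr2 had no fragment. Nuclear receptors (23 of 47) were led by the clock factors Nr1d2 (37.5 ± 1.6) and Nr1d1 (25.8 ± 1.7) and by the retinoid X receptors Rxrb (28.8 ± 0.18) and Rxra (18.9 ± 1.4). In the remaining group, Lrp11 (133.5 ± 6.4) was the only receptor gene above 100 FPKM, followed by Plxnb2 (88.2 ± 0.57), a semaphorin receptor, Gfra3 (41.4 ± 2.4), a partner of Ret, Tfrc (39.97 ± 0.30), the transferrin receptor, and Scarb2 (37.3 ± 1.6).

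The receptors for the cells' own peptides were looked up after the hormone levels were seen. For insulin, Insr was at 4.25, 4.49 and 4.82 FPKM, below Igf1r (13.4 ± 0.088) and the orphan relative Insrr (11.9 ± 0.85). For amylin, Calcr, the core of its receptor, had no fragment, which allows at most 0.0136 FPKM, and of its partners Ramp2 was at 1.61 ± 0.054 and Ramp1 and Ramp3 were below 0.3 FPKM. For cholecystokinin, Cckbr (3.09 ± 0.28) was above Cckar (0.869 ± 0.12). Npy1r, Npy2r and Npy5r, for neuropeptide Y, and Sctr, for secretin, had no fragment. Oprk1, for dynorphin, was at 0.0288 ± 0.011 FPKM. Products of Gcg had an uneven set: Glp1r led all G protein-coupled receptors, Glp2r had no fragment, and Gcgr had 2 fragments in 1 culture and 0 in the others.

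Ion channels were led by the KATP channel. Of 358 channel genes 105 reached 1 FPKM (29.3%) and 36 reached 10. Abcc8, its sulfonylurea receptor subunit, was listed at 114, 119 and 122 FPKM and Kcnj11, its pore subunit Kir6.2, at 74.9, 73.5 and 67.8 FPKM, a ratio of 1.65 ± 0.14. The cardiac and vascular counterparts Abcc9 and Kcnj8 were at 0.238 ± 0.022 and 0.200 ± 0.092. Kcnh6 (59.0 ± 6.4) and Kcnh2 (28.3 ± 1.2), of the ERG family, and Kcnip3 (29.1 ± 1.4), a channel-interacting protein, followed.

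Among voltage-gated calcium channel genes (12 of 35), Cacnb3, an auxiliary subunit, led at 46.3 ± 2.8 FPKM. The pore subunit Cacna1c was at 25.8, 28.8 and 30.6 FPKM, above Cacna1d at 4.01, 4.12 and 4.43, the other L-type channel of beta cells. Cacna2d1 (12.5 ± 0.95) and the T-type Cacna1h (9.88 ± 0.51) lay between them. Voltage-gated sodium channel genes and their relatives were low, with 5 of 15 expressed, among them Scn3b (1.79 ± 0.15), the leak channel Nalcn (1.63 ± 0.050), Scn9a (1.45 ± 0.090) and Scn8a (1.27 ± 0.11). TRP and related channels were led by the lysosomal Mcoln1 (11.7 ± 0.68), and Trpm5, a calcium-activated channel, was at 8.74 ± 0.45.

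Chloride and volume-regulated channels (19 of 44) included Tmem206, the proton-activated chloride channel, at 107, 104 and 106 FPKM, besides Abcc8 the only channel gene above 100. Clic1 (56.9 ± 2.8), Ttyh2 (49.8 ± 1.6), Clic4 (39.7 ± 1.5) and Clcn7 (22.0 ± 1.7) were next. A mixed family of transmitter-gated, acid-gated and epithelial sodium channels had 15 of 75 genes at 1 FPKM or above. Scnn1b, a subunit of the epithelial sodium channel, stood at 28.7 ± 1.1 FPKM. Of the glutamate receptors Grin1, the obligate NMDA receptor subunit, was at 24.2 ± 0.19 and Grik5, a kainate receptor subunit, at 22.7 ± 0.83. The acid-gated Asic1 was at 9.22 ± 0.32. Of the pacemaker family Hcn2 was at 32.8 ± 2.6 and Hcn4 at 17.1 ± 0.20. Store-operated and organelle channels had the widest coverage, 12 of 16, led by Tpcn1 (17.8 ± 0.22), Tmem38a (14.6 ± 0.96), Orai3 (13.5 ± 0.31), Stim2 (13.2 ± 0.68) and Stim1 (10.2 ± 0.13). Gjd2, the connexin 36 that couples beta cells, was at 13.2 ± 0.36 FPKM, and Tmem63b (34.5 ± 1.4) led its group.

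**Figure D4:**
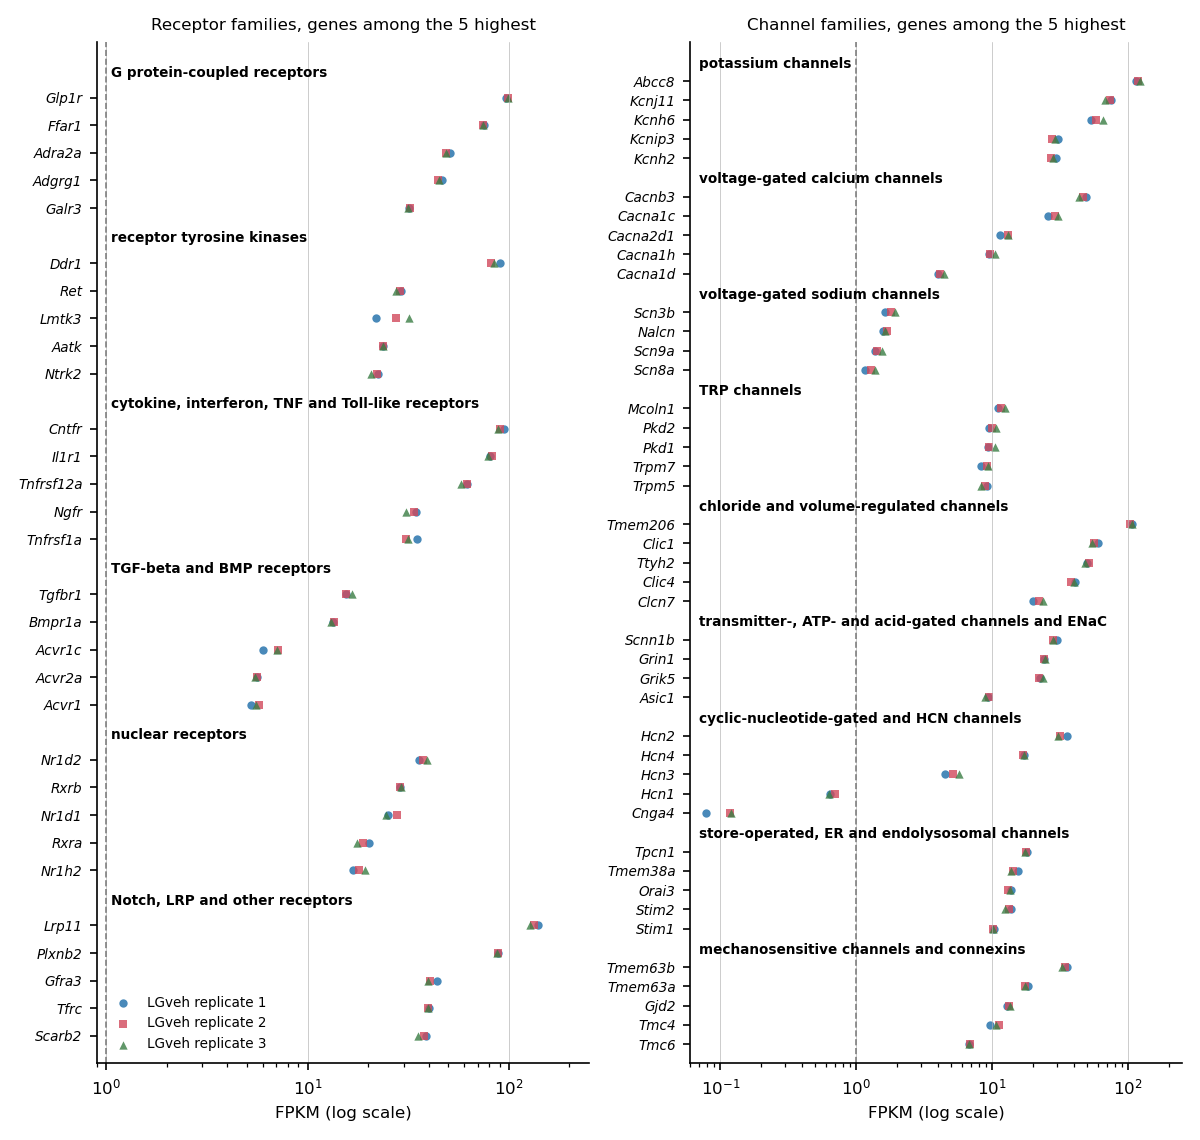
FPKM (log axis) of genes among the 5 highest of each receptor family and each channel family, with 1 symbol per culture and a dashed line at 1 FPKM. Glp1r, Ddr1, Cntfr and Lrp11 head their receptor families, Abcc8 and Tmem206 are the channel genes above 100 FPKM, and voltage-gated sodium channel genes lie below 10.

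Genes of pathways related to the study's question (ER calcium, inflammasome, ER stress and TMAO synthesis) were present at very different resting levels. The ER calcium pumps Atp2a3 (344 ± 3.8 FPKM) and Atp2a2 (294 ± 3.4) did not overlap, and Atp2a1 was at 0.218 ± 0.12. The release channels were low, with Itpr1 at 6.05 ± 0.22 and Itpr3 at 2.24 ± 0.19, and Ryr1, Ryr2 and Ryr3 below 0.3 FPKM. Of the inflammasome list, Nlrp3, the sensor, had 0, 2 and 0 fragments in the 3 cultures, Casp1 had 0, 3 and 2, and Pycard was at 0.0791 ± 0.041 FPKM, while Il1b was at 0.638 ± 0.20 and Rela, a subunit of NF-kappaB, at 25.4 ± 0.94. At this depth Nlrp3 mRNA, with 2 fragments in all, stayed under the limit of 3 counts. Of the flavin monooxygenases, which make TMAO from trimethylamine, Fmo5 was the highest at 0.338 ± 0.038 FPKM. All 6 genes of the ER stress list were expressed. The sensors Ern1 (IRE1), Atf6 and Eif2ak3 (PERK) stood at 16.4 ± 0.85, 12.9 ± 0.29 and 11.4 ± 0.36 FPKM, and the downstream factors Atf4, Ddit3 (CHOP) and Xbp1 at 263 ± 9.8, 75.9 ± 1.6 and 50.9 ± 2.5 FPKM.

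Most proliferation genes were expressed, 20 of 23 at 1 FPKM or above. The replication factors Pcna (259 ± 7.9) and Mcm2 (110 ± 3.0) were high, and so were inhibitors of the cycle: Cdkn2c (p18) at 278 ± 12.2, Cdkn2a at 174 ± 7.4 and Cdkn1b (p27) at 125 ± 0.91. Cdk4, the kinase that Cdkn2c and Cdkn2a products bind, was at 102 ± 0.46, while Cdk6 was at 0.00125 ± 0.0022 and Ccnd1 at 0.0485 ± 0.012, with Ccnd2 at 30.04 ± 1.3 as the highest D-type cyclin.

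Outside protein-coding genes, 249 long intergenic RNAs reached 1 FPKM. Malat1, a nuclear RNA, had the highest mean, at 79.9, 128 and 162 FPKM, but its range overlapped those of Gm42047 (118 ± 14.4) and Gm10076 (100.04 ± 2.6), and in culture 1 it was below both. Of the windows of Gm10076, 29.5% occur in Rpl41. Peg13, an imprinted RNA, led the sense-intronic class at 36.2 ± 1.9. Small RNA genes such as Mir5125 (55.6 ± 17.0 FPKM from a length of 79 bases) are listed, but libraries of long fragments do not measure mature microRNAs. Of 557 loci that the sequencing provider added to the annotation, 321 reached 1 FPKM. The highest spans 34995139 to 35000959 on the minus strand of chromosome 17 and stood at 84.5, 79.8 and 82.5 FPKM.

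The 3 cultures were close but not identical. On log2(FPKM + 1) over the 12967 expressed genes, Pearson's r between pairs was between 0.990 and 0.993. This is across genes, which are not independent replicates. Counts differed by more than sampling noise in each pair, with a median chi-square per gene of 1.98 to 3.15 times that of counting alone, so no pair looked like a repeated deposit of 1 library. That they are separate cultures rests on the series design. Over 12286 genes with a mean of at least 50 fragments, the median coefficient of variation (CV) between cultures was 4.89%. The long-run CV from counting alone had a median of 3.76%. For the 149 genes with at least 10000 fragments the values were 3.04% between cultures and 0.842% from counting. A median over CVs of 3 values tends to fall below the long-run CV, so the gap to counting is understated. Ins2 varied by 5.01%, Iapp by 3.73% and Ins1 by 2.76%. Of the leading 100 genes 3 had a CV over 10%: Gm10123, Rps27rt and Rps21.

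Of the 10 most variable genes 6 were provider loci, and all 6 lie on patch scaffolds, alternative versions of a chromosome segment that repeat its sequence. For comparison, genes off the main chromosomes were 0.391% of all genes with at least 50 fragments. The other 4 were Mrps23 (351, 68 and 30 fragments), a mitochondrial ribosomal protein gene, Snrnp40 (52, 253 and 60), Rnf181 (213, 159 and 552) and Rad9a (231, 80 and 80). A ribosomal protein gene and its copy also varied. Rps27 was listed at 218, 225 and 48.2 FPKM and its copy Rps27rt at 297, 222 and 702, and 89.5% of Rps27rt windows occur in Rps27. Each gene alone had a CV over 60%, whereas the share of fragments on both together had a CV of 3.43%. At the other end Atg13 (25.5, 25.4 and 25.5 FPKM), Ufc1, Zfp775, Ift57 and Nup160 varied by less than 0.1%, less than counting alone would give for a typical gene at their counts.

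**Figure D5:**
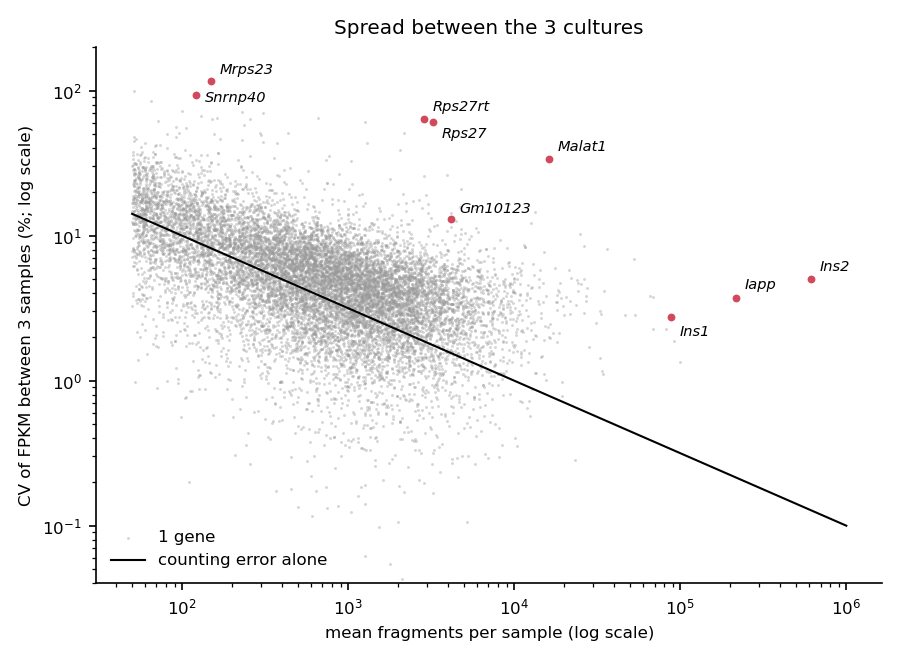
CV of FPKM between the 3 cultures against the mean number of fragments per gene, on log axes. Shown are 12286 genes with at least 50 fragments on average, and the line is the long-run CV from counting error alone. Rps27 and Rps27rt lie above 60% at about the same count, and Ins2, Iapp and Ins1 at 5.01%, 3.73% and 2.76%.

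The leading genes are set beside those of the other 9 samples, without a test. Of the 20 leading genes 19 or 20 were also among the leading 20 of each other sample, and of the leading 100 between 96 and 98. Ins2 held 7.54% to 8.03% of the FPKM total at baseline, and 7.27% to 8.15% in low glucose with TMAO, 7.998% to 8.26% in high glucose with vehicle and 7.97% to 8.38% in high glucose with TMAO. 27 of the 28 identity factors expressed at baseline reached 1 FPKM in all 4 conditions, as did 186 of the 188 receptor genes and 101 of the 105 channel genes. Of the 56 markers of other cell types without a fragment at baseline, 34 had none in any of the 12 samples and 0 exceeded 1 FPKM in any sample.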

How the data were processed

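RNA of MIN6 cells was sequenced after poly-T selection in libraries made with a NEBNext Ultra kit. The authors deposited a table of counts (fragments per gene, not normalized) and a table of FPKM values for the same 54022 genes, together with gene length. The submitters' processing notes name HISAT2 2.0.5, featureCounts 1.5.0-p3, DESeq2 1.16.1 and mm10. Whether counting used strand is not given in the sources used here, so overlapping and antisense genes are uncertain. Recomputing FPKM from the deposited counts and lengths implied library totals off the summed counts by -0.105%, 0.686% and 1.37% in the 3 samples. Pool shares are of each sample's summed FPKM. No test was run, since the samples form 1 condition. SDs measure the spread between cultures.

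The samples came from the labels and column names. Gene lists and families were written by hand from general knowledge, and the members and lists were chosen with earlier results of these data known. Genes were named when they were label markers, among the 30 highest genes, the 5 highest of a biotype or family, members of a role of 10 or fewer, the 6 highest of a larger role (3 for markers of other cell types), or among the 10 most and 5 least variable. Named outside this rule, after their values were seen, were the receptors of the cells' own peptides, mt-Co2, mt-Nd3, mt-Co3, mt-Atp6, mt-Nd4l, mt-Atp8 and the mitochondrial rRNAs, Gapdh, Ppia, Rps27, Rps27rt, Rps21, Gipr, Ucn3, Hk2, Ldha, Slc16a1, Abcc9, Kcnj8, Cdk6, Ccnd1, Ccnd2, Tgfbr2, Pcsk5, Qpct, Cpa1, Ctrb1 and the markers listed at 0. Copies were sought as 100-base windows, on either strand, shared between GENCODE M21 transcripts of different genes (881 genes were examined). GENCODE M21 lists 53274 of the 53465 Ensembl IDs. Sequences came from the same transcripts, aligned with Biopython 1.88, and the rest was computed in Python 3.11.15 with pandas 2.3.3, numpy 2.4.6 and matplotlib 3.10.9. The steps were tested on simulated counts. Some genes that the rule names are not reported here.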

Additional observations from a re-analysis of the deposited data

How the results depend on the processing

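Of 75 alternative values for 10 results, 57 moved by less than the spread between cultures or, for counts of genes, by less than 1.5 times. A floor of 5 FPKM lowered the counts to 8256 genes, 23 markers of other cell types, 108 receptor and 61 channel genes. Counting fragments without dividing by length raised the genes holding 50% of the total to 1266 and gave shares of 9.66% for the 20 leading genes (chosen anew), 3.73% for insulin and 8.98% for the secretory list. With protein-coding rows only these shares were 22.0%, 9.85% and 18.9%, and without mitochondrially encoded genes 18.9%, 9.62% and 18.5%. The median CV was 5.99% over genes with at least 10 counts and 3.77% with at least 500, and lay between 3.47% and 4.69% when each culture was left out. These changes follow from the construction of each alternative. Leaving out each culture kept the other 9 results within those bounds. No paired analysis was possible because the description has no contrast. Depth limits genes with few fragments: a count of 0 over the 3 samples allows up to 0.106 FPKM for the 81 list genes without a fragment, and more for shorter genes.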
